A study of Panax japonicus with 5 samples.

Results

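Secondary root (secRoot) of Panax japonicus was compared with young and old rhizome (rhizome_Y and rhizome_O), unigene by unigene. A unigene is a gene of the Trinity assembly, and its count and FPKM (fragments scaled to contig length and library depth) were summed over its contigs. The comparison held the 13334 of 135235 unigenes with 50 or more counts in any of the 3 libraries. A unigene was called higher in secRoot when its FPKM there was at least 2 times the mean of both rhizomes and above each of them, and lower when it was at most the inverse of that and below each of them. Tissues were taken from a single plant aged 7 years that grew in a medicinal plant garden, with no treatment. SecRoot is its secondary root, rhizome_Y the rhizome segment of the first bud scar, next to the stem, and rhizome_O that of the sixth bud scar, or the sixth and the seventh in another part of the study's text. Each tissue gave 1 library, so a difference has no replicate check, no p-value is given, and the 95% intervals below cover counting error only. Flower and leaf of the same plant were also sequenced and are used here as context only.

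The rhizome of this plant is an underground stem that persists over years and keeps a scar for each shoot that died back, whereas secondary roots branch below ground and take up water and minerals. Storage organs of perennial herbs build starch by the joint work of glucose-1-phosphate adenylyltransferase, starch synthase and starch branching enzyme, and amylases and phosphorylases take it apart when growth resumes. The phenylpropanoid pathway starts from phenylalanine, which comes from the shikimate pathway, and supplies lignin and many phenolic compounds, with methyl groups donated by S-adenosylmethionine.

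The expected counts added up to 4920387 in secRoot, 2836971 in rhizome_Y and 3382436 in rhizome_O, so that the secRoot library was the deepest. Of the unigenes compared, 2128 reached 50 counts in secRoot alone, 689 in a rhizome but not in secRoot, and 8544 in all 3 libraries. A total of 134 unigenes had a highest count of exactly 50, of which 17 were higher and 12 lower in secRoot, and 132 had a highest count of 49 and were left out, of which 7 and 10 would have been called higher and lower. The leaf library held fewer than 5 counts for 91.2% of the unigenes compared and was not read as a level. It was not a shallow library: it held 4614642 counts, and 11089 unigenes of the whole assembly reached 50 counts in it. Enzyme names came from the study's KEGG annotation, which named 1064 of the unigenes compared.

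Most unigenes had similar levels in secRoot and rhizome. The median log2 ratio of secRoot over the rhizome mean was -0.01, and 84.1% of the unigenes lay within 2-fold of the rhizome mean. A total of 1138 unigenes (8.53% of those compared) were higher in secRoot and 913 (6.85%) were lower. Of the higher unigenes, 581 reached 50 counts in secRoot alone, and of the lower ones 435 reached it in a rhizome but not in secRoot. These passed the filter only through the tissue where they were high, whereas 416 higher and 464 lower unigenes reached 50 counts in all 3 libraries. In 1088 of the higher (8.16% of those compared) and 769 of the lower unigenes (5.77%), the count ratio differed from 1 beyond counting error against each rhizome. With the 3 libraries thinned to the same depth, 871 unigenes were higher and 905 lower, out of 11127 compared, so that which direction held more unigenes depended on depth. At 4-fold, 248 unigenes (1.86%) were higher and 267 (2.0%) lower, and at 10-fold 28 (0.21%) were higher and 78 (0.585%) lower. These 78 include 22 unigenes with no count in secRoot. Of all 35 compared unigenes with no count in secRoot, 34 had more counts in rhizome_Y than in rhizome_O. In bulk tissue, fewer cells of a type and less RNA per cell cannot be told apart.

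**Figure D1:**
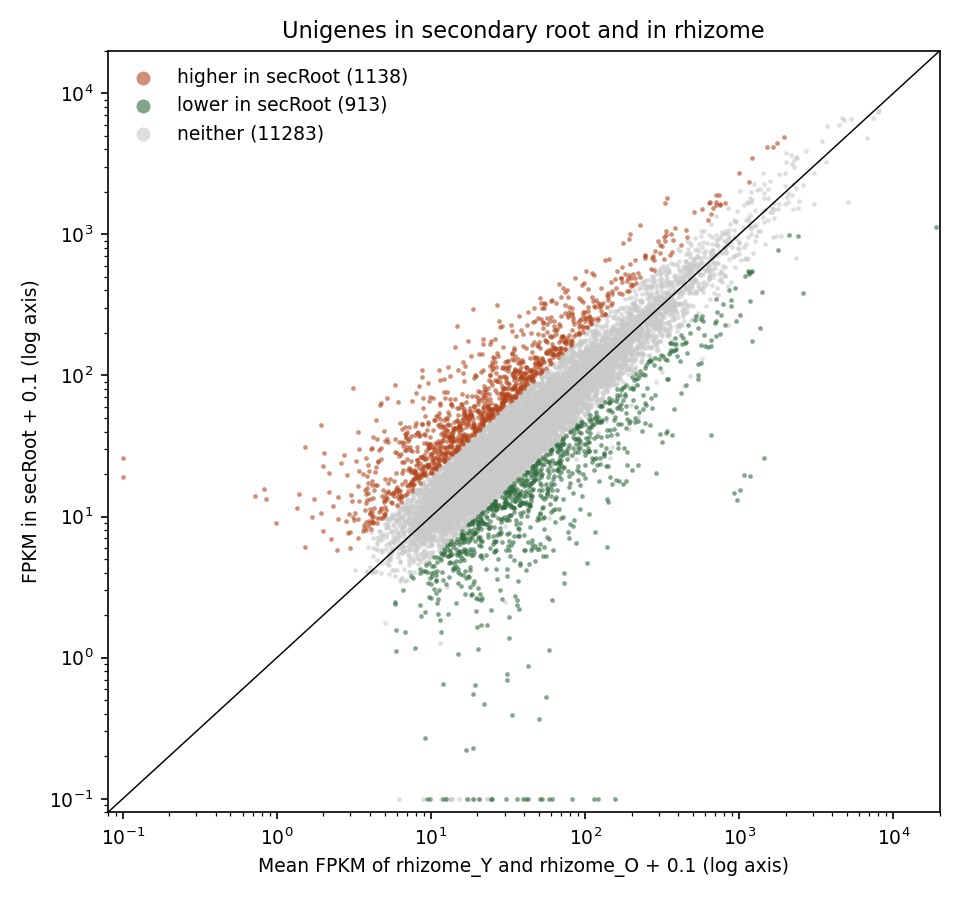
FPKM of the 13334 unigenes in secRoot (vertical axis) against the mean FPKM of rhizome_Y and rhizome_O (horizontal axis), with 0.1 added, on log axes. TR59117|c1_g2, with a rhizome mean of 21361.5, lies outside the plotted range. Orange marks the 1138 unigenes higher and green the 913 lower in secRoot. The line marks equal values, and the row of points at the bottom had no count in secRoot.

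The shares of library counts held by the called unigenes are descriptive, since the call rule fixes the direction in which they differ. The higher unigenes held 12.1% of all counts in secRoot, against 4.57% in rhizome_Y and 3.96% in rhizome_O. The lower unigenes held 2.74% of all counts in secRoot, against 10.8% in rhizome_Y and 10.2% in rhizome_O. A pair of unigenes with no enzyme name, TR64679|c0_g1 and TR59117|c1_g2, singled out after their values were seen, took a large share of the lower ones. TR64679|c0_g1 had an FPKM of 1133 in secRoot, 14565 in rhizome_Y and 23330.3 in rhizome_O, and TR59117|c1_g2 had 1243 in secRoot, 17766 in rhizome_Y and 24957 in rhizome_O. They were 16.7-fold and 17.2-fold lower in secRoot, and together held 0.131% of the secRoot counts, against 1.74% in rhizome_Y and 2.68% in rhizome_O. Without this pair, the lower unigenes held 2.61% of the counts in secRoot, 9.07% in rhizome_Y and 7.54% in rhizome_O.

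The rhizomes differed more from each other in the called unigenes than in unigenes in general. Of the 1138 higher unigenes, 581 had fewer than 50 counts in each rhizome, and the part of counting error in this spread was not tested. FPKM of rhizome_Y and rhizome_O lay within 2-fold of each other in 73.2% of the higher and 67.9% of the lower unigenes, against 87.5% of all unigenes compared. Both rhizome values are part of the call rule, so these shares are not independent of the calls. SecRoot was 2-fold above each rhizome in 758 of the higher unigenes and 2-fold below each rhizome in 542 of the lower ones. With rhizome_Y alone as the reference, 1391 unigenes were higher and 1083 lower, and with rhizome_O alone 1414 were higher and 1018 lower. The higher unigenes were shorter, with a median length of 1059.5 bp, against 1225 bp in the lower ones and 1336 bp in all, and 40.7%, 34.8% and 25.9% of them had a single contig.

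Flower was 2-fold below the rhizome mean in 42.6% of the higher and 37.3% of the lower unigenes, against 18.5% of all. It was 2-fold above that mean in 11.5% of the higher and 14.6% of the lower unigenes, against 7.66% of all. The rhizome mean is also part of the call rule, so these shares are not independent of the calls.

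Among the unigenes with an enzyme name, more were lower than higher. Of these 1064 unigenes, 66 (6.2%) were higher and 83 (7.8%) lower in secRoot, with a median log2 ratio of -0.09, and 62 (5.83%) and 79 (7.42%) differed from each rhizome beyond counting error. At 4-fold, 8 (0.752%) were higher and 21 (1.97%) lower. Enzymes were read in 24 lists of 153 enzymes, and medians of the lists ran from -1.68 for starch synthesis to 0.97 for the entry into the phenylpropanoid pathway. The annotation gave only part of the contigs for many enzymes, and 58 of the 153 had complete rows, so a count over a list covers only the unigenes shown there. A unigene with several enzyme names stands in each list that holds one of them. Over all unigenes compared, 8.53% were higher and 6.85% lower, and the share of calls in each list below is to be read beside these.

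**Figure D2:**
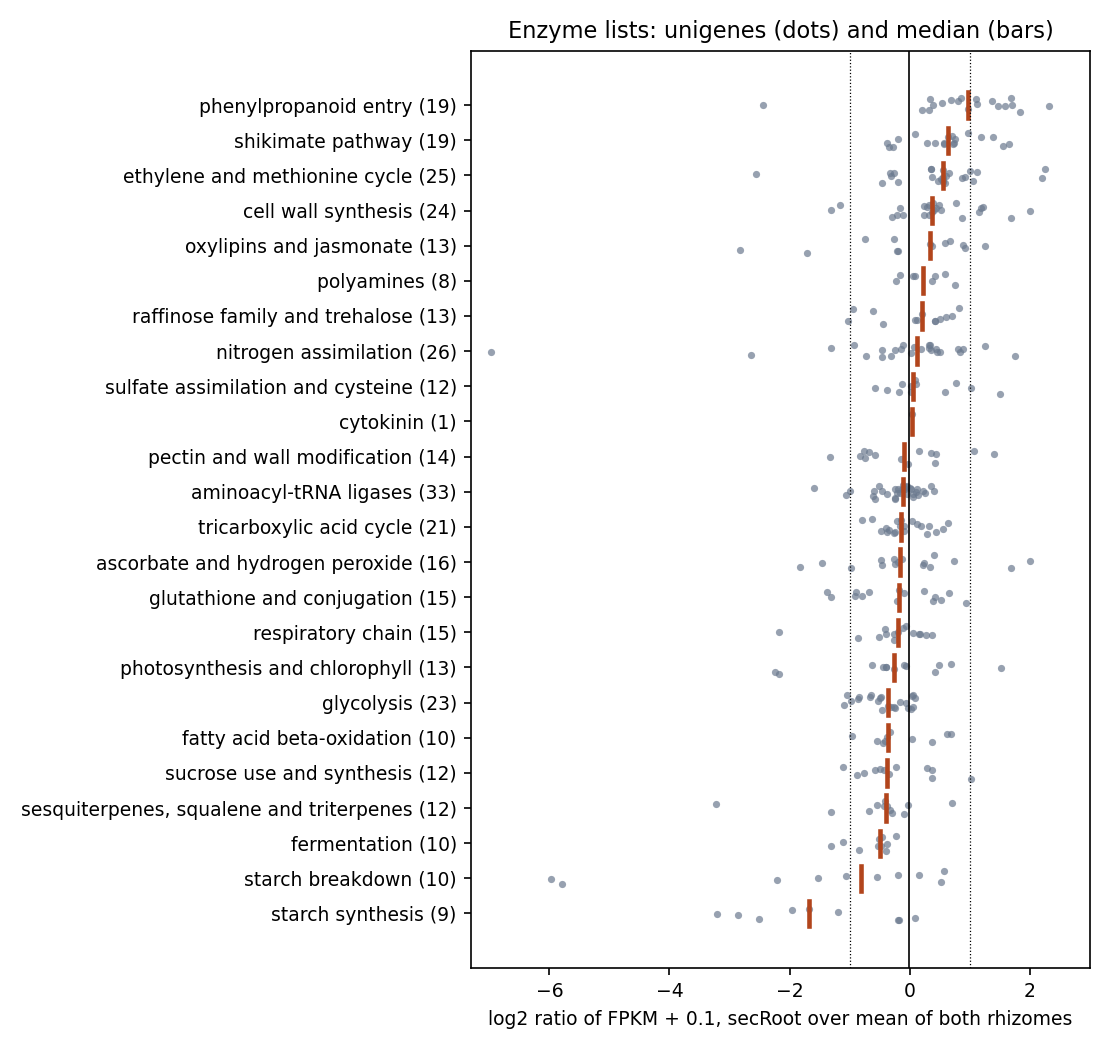
Log2 ratio of FPKM with 0.1 added, secRoot over the mean of both rhizomes, for the members of each enzyme list (dots, with their number in brackets) and the median of the list (orange bars). The solid line marks the median over all unigenes compared, -0.01, and the dotted lines 2-fold; starch synthesis (-1.68) and starch breakdown (-0.80) lie at the bottom, and phenylpropanoid entry (0.97) and the shikimate pathway (0.64) at the top.

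Most starch synthesis enzymes and part of the breakdown enzymes were lower in secRoot. Of 9 unigenes for starch synthesis, 6 (66.7%) were lower and 0 higher, with a median log2 ratio of -1.68, against -0.01 over all unigenes. None of its 3 enzymes had complete annotation rows. Their FPKM added up to 367 in secRoot, against 1160.2 in rhizome_Y and 1263 in rhizome_O. Of 10 unigenes for starch breakdown, 5 were lower and 0 higher, with a median of -0.80, and their FPKM added up to 295 in secRoot, against 2063 in rhizome_Y and 3261 in rhizome_O. Beta-amylase alone held 68.4 of this sum in secRoot, 1801 in rhizome_Y and 2988 in rhizome_O, mostly in 2 of its unigenes. In the same order, alpha-amylase held 25.5, 44.5 and 39.9, and the disproportionating enzyme 42.3, 117 and 118. Alpha-glucan phosphorylase held 159, 99.8 and 115. The 11 lower unigenes of both lists differed from each rhizome beyond counting error.

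Beta-amylase, which cuts maltose from the ends of starch chains, gave the strongest contrast of all enzyme-named unigenes. TR60064|c0_g1 had an FPKM of 14.5 in secRoot, 699 in rhizome_Y and 1147 in rhizome_O, which is 63.6-fold lower in secRoot, and these values rest on 139, 3861 and 7554 counts. TR35404|c0_g1, a short unigene of 385 bp, had 25.9 in secRoot, 1079.7 in rhizome_Y and 1797 in rhizome_O (55.6-fold lower). In TR60064|c0_g1 the share of library counts in secRoot was 0.0208 times that in rhizome_Y (95% interval 0.0174 to 0.0246) and 0.0126 times that in rhizome_O (0.0106 to 0.015). A second unigene of the same Trinity component without an enzyme name, TR60064|c0_g2, had 15.3 in secRoot, 774 in rhizome_Y and 1258.5 in rhizome_O, and how reads were shared between them is uncertain. Both named unigenes were also low in flower, with an FPKM of 4.91 and 7.02. Other beta-amylase unigenes did not share the contrast: TR64997|c0_g1 had 14.4 in secRoot, 11.5 in rhizome_Y and 30.8 in rhizome_O, and TR68381|c0_g1 had 13.7 in secRoot, 10.8 in rhizome_Y and 13.6 in rhizome_O.

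Starch branching enzyme, which adds the side branches of amylopectin, was lower in all 3 of its listed unigenes that were compared. TR68986|c0_g1 was the most abundant starch synthesis unigene, with an FPKM of 94.8 in secRoot, 565 in rhizome_Y and 516 in rhizome_O (5.70-fold lower). TR68986|c3_g1, which shares its TR number, had 72.5 in secRoot, 309 in rhizome_Y and 259 in rhizome_O. TR67632|c0_g2 had 2.92 in secRoot, 27.1 in rhizome_Y and 28.5 in rhizome_O, which is 9.52-fold lower by FPKM and 5.19-fold lower by TMM-scaled counts. By its most abundant contig it was 4.42-fold lower.

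Glucose-1-phosphate adenylyltransferase, which makes the ADP-glucose that starch synthase uses, was lower in 2 of 4 unigenes. TR65383|c0_g2 had an FPKM of 9.60 in secRoot, 30.5 in rhizome_Y and 109 in rhizome_O (7.28-fold lower), and TR53432|c0_g1 had 37.1 in secRoot, 109.5 in rhizome_Y and 129 in rhizome_O. The other two, TR47400|c0_g1 and TR50138|c1_g1, lay between the rhizomes, and both are also annotated as sulfate adenylyltransferase. Of the starch synthase unigenes, TR56021|c0_g1 had 15.3 in secRoot, 36.2 in rhizome_Y and 33.9 in rhizome_O, whereas TR63713|c0_g1 had 11 in secRoot, 11.7 in rhizome_Y and 14 in rhizome_O and was not called.

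Further enzymes of starch breakdown differed by kind. The disproportionating enzyme, which moves stretches of glucan between chains, was lower in both unigenes, and TR56006|c0_g1 had an FPKM of 36.3 in secRoot, 106 in rhizome_Y and 105 in rhizome_O. One alpha-amylase, TR51702|c0_g1, had 3.67 in secRoot, 27.4 in rhizome_Y and 7.42 in rhizome_O. Alpha-glucan phosphorylase, which releases glucose 1-phosphate, stood on the other side: TR66559|c0_g1 had 143 in secRoot, 92.1 in rhizome_Y and 101 in rhizome_O, above each rhizome but within 2-fold.

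**Figure D3:**
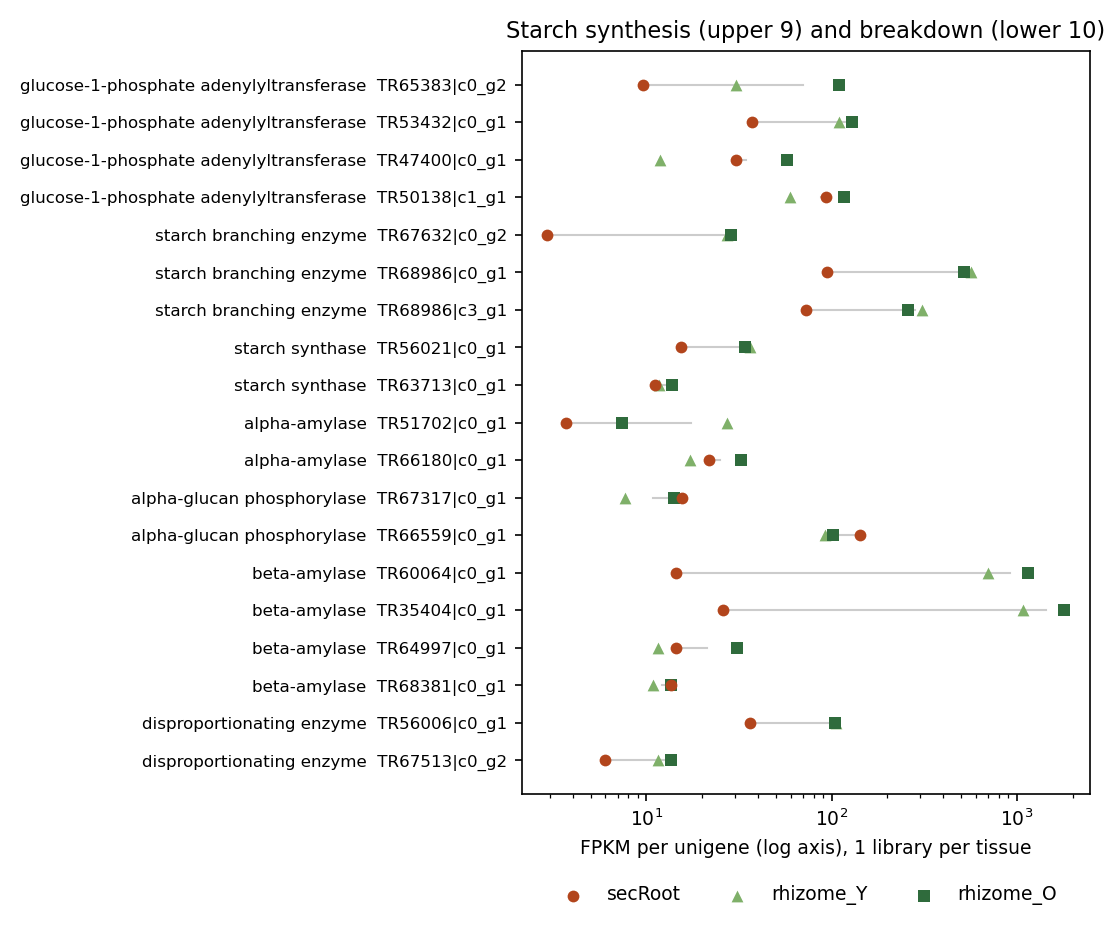
FPKM on a log axis of the 19 unigenes for starch synthesis (upper 9) and starch breakdown (lower 10) in secRoot (orange circles), rhizome_Y (light triangles) and rhizome_O (dark squares), 1 library each; the grey line joins secRoot to the rhizome mean. The beta-amylase unigenes TR60064|c0_g1 and TR35404|c0_g1 have the longest lines, with 14.5 and 25.9 in secRoot.

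Many enzymes at the entry into the phenylpropanoid pathway were higher in secRoot. Of 19 unigenes, 9 (47.4%) were higher and 1 (5.26%) lower, and the median log2 ratio was 0.97. Of the same 19, 17 lay above both rhizomes at any fold (35.7% of all unigenes did). The FPKM of the list added up to 7158 in secRoot, against 3799 in rhizome_Y and 4293 in rhizome_O. Flower had a sum of 1000.4. The median was 0.36 over the 4 unigenes of enzymes whose annotation rows were complete.

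Phenylalanine ammonia-lyase, which opens the pathway by taking ammonia from phenylalanine, was higher in all 5 of its listed unigenes that were compared. TR52357|c2_g1 held most of its RNA, with an FPKM of 891 in secRoot, 279.6 in rhizome_Y and 313 in rhizome_O (3.00-fold higher). Its share of counts was 3.1 times that in rhizome_Y (95% interval 2.93 to 3.28) and 2.65 times that in rhizome_O (2.52 to 2.78). TR15841|c0_g1 had 414 in secRoot, 154 in rhizome_Y and 165 in rhizome_O, and TR42498|c0_g1 had 47.6 in secRoot, 18.2 in rhizome_Y and 11.2 in rhizome_O. The largest ratio, 5.04, was that of TR28460|c0_g3, which is 224 bp long and rests on 51 counts in secRoot, 5 in rhizome_Y and 8 in rhizome_O. Short unigenes of this kind can be pieces of the same transcript, so their number is not a number of genes. Over all 5 unigenes the FPKM summed to 1530.4 in secRoot, 496 in rhizome_Y and 529 in rhizome_O.

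The following steps were less separated. Cinnamate 4-hydroxylase, the next enzyme, was called in none of 4 unigenes, and its FPKM summed to 2002 in secRoot, 1662 in rhizome_Y and 1456 in rhizome_O. 4-coumarate-CoA ligase, which activates the acids for later steps, was higher in 1 of 4 unigenes, TR87201|c0_g1, with 221 in secRoot, 84.3 in rhizome_Y and 120.2 in rhizome_O. Its most abundant unigene TR60317|c0_g2 had 484 in secRoot, 265 in rhizome_Y and 499.5 in rhizome_O, so that secRoot lay between the rhizomes.

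Caffeoyl-CoA O-methyltransferase, which methylates a lignin precursor, was higher in 3 of 6 unigenes and lower in 1. TR21689|c0_g1 had an FPKM of 211 in secRoot, 46.1 in rhizome_Y and 83.0 in rhizome_O (3.26-fold higher), and its flower count was 0. The most abundant unigene of the whole list, TR41783|c0_g1, had 1537.5 in secRoot, 723 in rhizome_Y and 967 in rhizome_O, a ratio of 1.8 that was not called. The exception was TR64291|c1_g1, with 1.95 in secRoot, 15.4 in rhizome_Y and 6.63 in rhizome_O, which rests on 12, 54 and 28 counts.

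**Figure D4:**
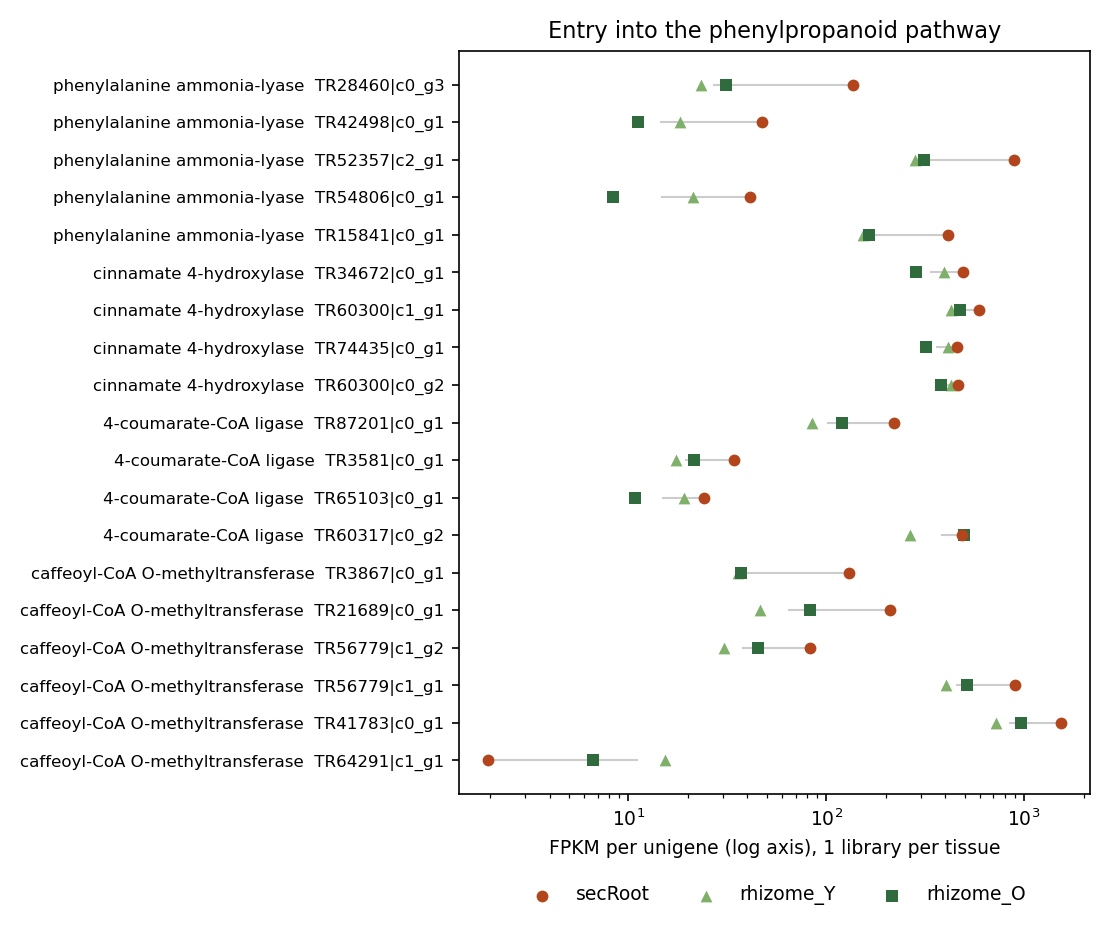
FPKM on a log axis of the 19 unigenes for the entry into the phenylpropanoid pathway in secRoot (orange circles), rhizome_Y (light triangles) and rhizome_O (dark squares), 1 library each; the grey line joins secRoot to the rhizome mean. SecRoot lies to the right of both rhizomes in 17 of the 19, and TR64291|c1_g1 at the bottom is the one called lower.

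The shikimate pathway, which makes the aromatic amino acids, lay above the rhizomes in most unigenes. Of 19 unigenes, 4 (21.1%) were higher and 0 lower, 15 lay above both rhizomes, and the median log2 ratio was 0.64. Of the called ones, 3 stand at its end. Chorismate mutase, which turns chorismate into prephenate, had an FPKM of 97.7 in secRoot, 33.5 in rhizome_Y and 28.1 in rhizome_O in TR60812|c1_g1 (3.17-fold higher), and 109.8 in secRoot, 38.1 in rhizome_Y and 36.7 in rhizome_O in TR60812|c0_g2, which shares its TR number. Arogenate dehydratase, which completes phenylalanine, had 54.1 in secRoot, 22.4 in rhizome_Y and 18.8 in rhizome_O in TR62473|c0_g1. The fourth, TR58900|c0_g2, did not differ from each rhizome beyond counting error. DAHP synthase, the entry enzyme, was called in none of its unigenes, and the most abundant, TR3266|c0_g1, had 616 in secRoot, 380.2 in rhizome_Y and 365 in rhizome_O.

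S-adenosylmethionine synthetase, which makes the methyl donor, was higher in 4 of 9 unigenes. Its FPKM added up to 8226 in secRoot, 4528 in rhizome_Y and 4790.1 in rhizome_O. TR43348|c3_g1, which is 238 bp long, had 438 in secRoot, 78.8 in rhizome_Y and 112 in rhizome_O (4.60-fold higher). TR60451|c4_g1 had 713 in secRoot, 314 in rhizome_Y and 398 in rhizome_O (2.0-fold higher). The call of TR60451|c4_g1 lies at the cut-off. Its ratio was 1.997 with TPM, 1.998 with TMM-scaled and 1.997 with median-of-ratios-scaled counts, so it would not be called there. TR60451 and TR43348 each hold several of these unigenes, and how similar their sequences are was not tested. The list of ethylene and methionine cycle enzymes had 5 higher and 1 lower of 25 unigenes and a median log2 ratio of 0.56. The most abundant, the adenosylhomocysteinase TR63903|c2_g1, had 3894 in secRoot, 3231 in rhizome_Y and 2197 in rhizome_O.

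ACC synthase, which commits S-adenosylmethionine to ethylene, held unigenes in both directions. TR52976|c0_g1 had an FPKM of 92.9 in secRoot, 46.0 in rhizome_Y and 39.0 in rhizome_O (2.19-fold higher), whereas TR61673|c0_g1 had 2.73 in secRoot, 11.6 in rhizome_Y and 21.4 in rhizome_O (6.05-fold lower). Both had 0 counts in flower. ACC oxidase, which forms ethylene itself, was called in none of 4 unigenes.

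Enzymes that make wall sugars and wall polymers were mixed. Of 24 unigenes for cell wall synthesis, 5 (20.8%, against 8.53% of all) were higher and 2 (8.33%, against 6.85% of all) lower. Their median log2 ratio was 0.38. UDP-glucuronate epimerase, which makes the galacturonate donor for pectin, was higher in TR56973|c1_g1, with an FPKM of 48.3 in secRoot, 12.5 in rhizome_Y and 11.6 in rhizome_O (4.02-fold higher), and in TR62161|c3_g1, with 492 in secRoot, 289 in rhizome_Y and 132 in rhizome_O (2.34-fold higher). For TR62161|c3_g1 the rhizomes stood further from each other than secRoot from rhizome_Y. Cellulose synthase was higher in 2 unigenes, and TR6606|c0_g1 had 359 in secRoot, 178 in rhizome_Y and 43.8 in rhizome_O. UDP-glucose dehydrogenase, which makes UDP-glucuronate, was lower in its most abundant unigene TR55473|c0_g1, with 519 in secRoot, 1268 in rhizome_Y and 1039.9 in rhizome_O (2.22-fold lower). That unigene and TR33382|c1_g1, with 217 in secRoot, 625 in rhizome_Y and 459 in rhizome_O, are also annotated as other dehydrogenases, so their name is uncertain.

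Among enzymes that change pectin and other wall polymers, 2 of 14 unigenes (14.3%) were higher and 1 (7.14%) lower, with a median of -0.09. Beta-xylosidase TR59346|c1_g1 had an FPKM of 188 in secRoot, 110.3 in rhizome_Y and 32.6 in rhizome_O, and the pectinesterase TR54178|c0_g1 had 56.4 in secRoot, 202 in rhizome_Y and 80.7 in rhizome_O. The rhizomes differed from each other in both, and secRoot lay beyond the nearer rhizome by less than 2-fold.

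Outside these lists, the largest ratios belonged to enzymes of different pathways. The highest ratio among enzyme-named unigenes with 100 or more counts was that of TR51538|c0_g1, annotated as inositol oxygenase, which opens myo-inositol to glucuronate. Its FPKM was 44.8 in secRoot, 12.8 in rhizome_Y and 4.53 in rhizome_O (5.16-fold higher). A phospholipase C, TR64225|c0_g1, which cleaves phosphoinositides, had 34.3 in secRoot, 8.82 in rhizome_Y and 5.26 in rhizome_O (4.88-fold higher). Phosphoenolpyruvate carboxykinase, which leads from organic acids towards sugars, had 77.0 in secRoot, 21.5 in rhizome_Y and 18.8 in rhizome_O in TR59034|c1_g1 (3.82-fold higher). Glutamate decarboxylase, which makes gamma-aminobutyrate, had 66.2 in secRoot, 17.1 in rhizome_Y and 23.1 in rhizome_O in TR57308|c0_g1 (3.29-fold higher). For each of these the rhizomes lay closer to each other than to secRoot.

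On the lower side, TR66054|c0_g1, annotated as a nucleotide diphosphatase, had an FPKM of 5.14 in secRoot, 80.7 in rhizome_Y and 25.3 in rhizome_O (10.3-fold lower, or 6.74-fold by its most abundant contig). TR62133|c0_g2, annotated both as a choline dehydrogenase and as a mandelonitrile lyase, had 4.17 in secRoot, 28.3 in rhizome_Y and 17.1 in rhizome_O (5.44-fold lower). TR68038|c0_g1, a P450 enzyme annotated as an oxime monooxygenase, had 7.17 in secRoot, 33.8 in rhizome_Y and 40.7 in rhizome_O (5.20-fold lower). The highest rhizome FPKM among lower unigenes with an enzyme name was that of TR52393|c0_g1. It is annotated as hydroxymethylglutathione dehydrogenase, which takes part in formaldehyde removal. Its FPKM was 982 in secRoot, 2252 in rhizome_Y and 1928 in rhizome_O (2.1-fold lower). A glucan beta-glucosidase, TR64836|c2_g1, had 505 in secRoot, 1399.9 in rhizome_Y and 773 in rhizome_O (2.15-fold lower).

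**Figure D5:**
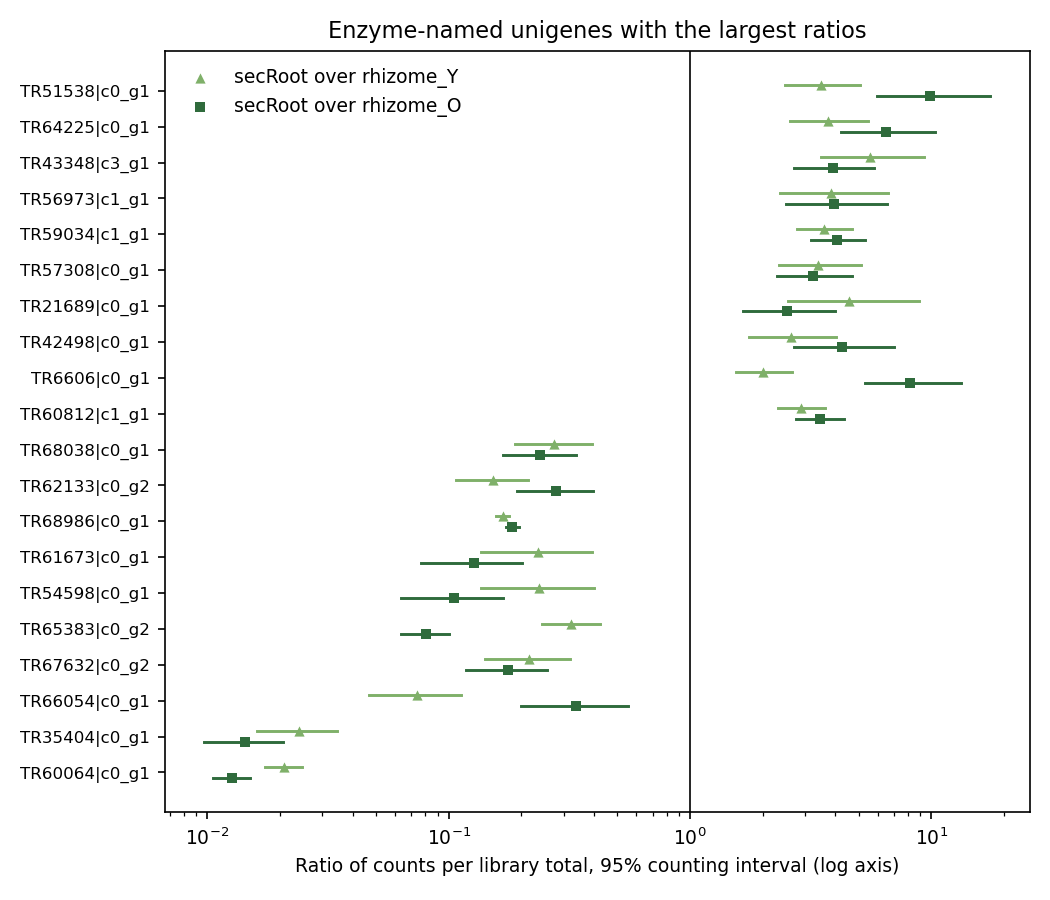
Ratio of the share of library counts in secRoot to that in rhizome_Y (triangles) and in rhizome_O (squares), on a log axis, for the 10 higher and 10 lower enzyme-named unigenes with the largest ratios, with 95% counting intervals. All 40 intervals lie clear of 1, which was required for naming, and the lowest ratios are those of the beta-amylase unigenes TR60064|c0_g1 (0.0208 and 0.0126) and TR35404|c0_g1 (0.024 and 0.0144).

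Unigenes without an enzyme name reached larger ratios. TR54386|c1_g1 had an FPKM of 81.3 in secRoot, 3.3 in rhizome_Y and 2.77 in rhizome_O (26.8-fold higher), and TR61083|c0_g1 had 44.1 in secRoot, 2.0 in rhizome_Y and 1.68 in rhizome_O (24-fold higher), from 113 counts in secRoot and 3 in each rhizome. On the lower side, TR57590|c0_g1 had 0 counts in secRoot, 168 in rhizome_Y and 7 in rhizome_O, and TR56930|c0_g1 had 0 in secRoot, 122 in rhizome_Y and 6 in rhizome_O. With 3 counts taken as the limit that a count of 0 allows in secRoot, they were at least 97.1-fold and at least 70.5-fold lower there than in rhizome_Y. The 95% intervals of the count ratio are wider and reach 0.0128 and 0.0177 times rhizome_Y. Both were also weak in rhizome_O, so these contrasts rest on rhizome_Y.

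Nitrogen assimilation held calls in both directions, with 2 higher and 2 lower of 26 unigenes (7.69% each, against 8.53% and 6.85% of all) and a median log2 ratio of 0.13. Nitrate reductase, which starts nitrate assimilation, was lower in TR54598|c0_g1, with an FPKM of 1.74 in secRoot, 7.02 in rhizome_Y and 15.8 in rhizome_O (6.55-fold lower). The other nitrate reductase unigenes were not called, and the most abundant, TR67355|c2_g1, had 611 in secRoot, 440.2 in rhizome_Y and 635 in rhizome_O. Asparagine synthase, which stores nitrogen in asparagine, was higher in TR59472|c1_g2, with 18.3 in secRoot, 8.03 in rhizome_Y and 2.69 in rhizome_O (3.42-fold higher, or 5.36-fold by its most abundant contig). Sulfate assimilation had 2 higher (16.7%) and 0 lower of 12 unigenes and a median of 0.06. Both were annotated as adenylyl-sulfate reductase, the step that reduces activated sulfate, and TR83956|c0_g1 had 43.2 in secRoot, 14.4 in rhizome_Y and 15.9 in rhizome_O.

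List medians of central carbon metabolism lay slightly below the rhizomes, with few calls. In glycolysis, 0 of 23 unigenes lay above both rhizomes and 16 lay below both (34.3% of all unigenes did). Of these 23, 0 were higher and 2 (8.7%) lower, with a median log2 ratio of -0.35. Glyceraldehyde-3-phosphate dehydrogenase TR58281|c2_g3 had an FPKM of 1534 in secRoot, 2632 in rhizome_Y and 2158 in rhizome_O, within 2-fold, and phosphoglycerate kinase TR62799|c3_g1 had 551 in secRoot, 1324 in rhizome_Y and 949 in rhizome_O (2.06-fold lower). In fermentation, 9 of 10 unigenes lay below both rhizomes and 2 were lower, with a median of -0.49. The pyruvate decarboxylase TR63128|c3_g1 had 854 in secRoot, 1242 in rhizome_Y and 971 in rhizome_O. Enzymes of sucrose use and synthesis had a median of -0.39, with 1 higher and 1 lower of 12 (8.33% each). The most abundant sucrose synthase, TR65577|c2_g1, had 351 in secRoot, 819.5 in rhizome_Y and 470.4 in rhizome_O. The tricarboxylic acid cycle had 0 calls in 21 unigenes and a median of -0.15, with 10 unigenes below both rhizomes and 7 above both. The respiratory chain had 0 higher and 1 lower (6.67%) of 15 and a median of -0.20. Medians of this size were not particular to these lists. Of 33 aminoacyl-tRNA ligase unigenes, 17 lay below both rhizomes, with a median of -0.11.

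Enzymes that handle hydrogen peroxide and glutathione were mixed. In the list of ascorbate and hydrogen peroxide enzymes, 2 of 16 unigenes were higher and 2 lower (12.5% each), with a median log2 ratio of -0.16. Catalase, which splits hydrogen peroxide, was lower in its main unigene TR55497|c2_g1, with an FPKM of 228 in secRoot, 819 in rhizome_Y and 788 in rhizome_O (3.53-fold lower). Both higher unigenes were annotated as ascorbate oxidase, an enzyme of the cell wall space, and TR49288|c1_g1 had 50.2 in secRoot, 19.5 in rhizome_Y and 5.44 in rhizome_O. Of 15 glutathione unigenes, 0 were higher and 2 (13.3%) lower, with a median of -0.18. The most abundant, the glutathione peroxidase TR52802|c1_g2, had 2069 in secRoot, 1563 in rhizome_Y and 1062 in rhizome_O.

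Oxylipin and jasmonate enzymes had 1 higher (7.69%) and 2 lower (15.4%) of 13 unigenes and a median log2 ratio of 0.33. Linoleate 13S-lipoxygenase, which starts jasmonate synthesis, was lower in TR51249|c0_g1, with an FPKM of 4.79 in secRoot, 53.2 in rhizome_Y and 16 in rhizome_O. Allene oxide cyclase, a later step, had 768 in secRoot, 496 in rhizome_Y and 336 in rhizome_O in TR47188|c0_g1, above each rhizome but within 2-fold. Raffinose family and trehalose enzymes had 0 higher and 1 lower (7.69%) of 13 and a median of 0.21. Polyamine enzymes had 0 calls in 8 and a median of 0.23, and fatty acid beta-oxidation 0 calls in 10 and a median of -0.36. The single cytokinin unigene compared, TR63534|c0_g1, had 11.4 in secRoot, 7.36 in rhizome_Y and 14.7 in rhizome_O.

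A list of early mevalonate, squalene and sesquiterpene enzymes lay mostly below the rhizomes. Of its 12 unigenes, 6 were annotated as acetyl-CoA acetyltransferase. Beta-amyrin synthase and dammarendiol synthase were not in the list, so it covers only part of the route to the triterpene saponins. Of the 12, 0 were higher and 2 (16.7%) lower, 8 lay below both rhizomes, and the median log2 ratio was -0.40. The lower ones were annotated as sesquiterpene cyclases, and TR61294|c0_g1 had an FPKM of 4.52 in secRoot, 61.8 in rhizome_Y and 24.8 in rhizome_O. That is 9.58-fold lower by summed FPKM and 3.88-fold lower by its most abundant contig. Squalene synthase, which makes the triterpene precursor, had 110.1 in secRoot, 139.95 in rhizome_Y and 84.2 in rhizome_O in TR62965|c0_g2 and was not called. CYP716A52v2, a P450 known in Panax ginseng as a beta-amyrin oxidase, was named in the study and is given outside the rule for naming. Its unigene TR45427|c0_g1 had 48.8 in secRoot, 242 in rhizome_Y and 129.7 in rhizome_O (3.81-fold lower). The study listed 897 unigenes as P450, sugar-conjugation or terpene backbone genes and clustered them on all 5 tissues. Of these, 320 were compared, with a median log2 ratio of 0.02. A total of 29 (9.06%, against 8.53% of all) were higher and 34 (10.6%, against 6.85% of all) lower. In selected clusters, the study reported P450 unigenes highest in rhizome_Y and glycosyltransferases highest in secRoot. The pooled counts given here do not separate these kinds.

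Green-tissue and general enzymes were read as markers. Of 76 listed unigenes for photosynthesis and chlorophyll, 13 were compared, with 1 higher (7.69%), 2 lower (15.4%) and a median log2 ratio of -0.27. Of the 2 lower, 1 differed from each rhizome beyond counting error. The list summed to an FPKM of 3544 in secRoot, 1924 in rhizome_Y and 2832 in rhizome_O, of which 3234, 1529 and 2369 came from 4 unigenes annotated as protochlorophyllide reductase, an enzyme of chlorophyll synthesis. That name comes from the enzyme annotation alone and is uncertain, so these 4 were also set apart. Among them, TR69442|c0_g1 had the highest FPKM of the enzyme-named unigenes called higher, with 1103 in secRoot, 325 in rhizome_Y and 446 in rhizome_O. It is 283 bp long and rests on 729 counts in secRoot, against 7795 counts for the longer TR52357|c2_g1 of lower FPKM. The other 9 summed to 311 in secRoot, 395 in rhizome_Y and 463 in rhizome_O, against 1894 in flower. Ribulose-bisphosphate carboxylase TR32787|c0_g1, which fixes carbon dioxide, had 3.61 in secRoot, 4.34 in rhizome_Y and 30.7 in rhizome_O, against 955 in flower. None of the unigenes listed for phosphoribulokinase, sedoheptulose-bisphosphatase and the magnesium-protoporphyrin cyclase reached 50 counts. Of 33 aminoacyl-tRNA ligase unigenes, which every cell uses for protein synthesis, 0 were higher and 3 (9.09%) lower, with a median of -0.11. Of the 3 lower, 2 differed from each rhizome beyond counting error. The part of green cells or of cell makeup in the contrasts above was not tested.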

How the data were processed

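RNA of 5 tissues of 1 plant was sequenced, and 3 libraries were compared here. The authors trimmed reads with Trimmomatic, assembled all tissues with Trinity 2.0.6, aligned reads to the contigs with Bowtie 2.0, and quantified them with RSEM. For RSEM and Trimmomatic, no version is given in the sources. Expected counts, as deposited, are read pairs per contig from the authors' RSEM run, all whole numbers. The deposited FPKM are those counts scaled to effective length and library depth, as the authors' RSEM run gave them. The deposited TPM come from the same run by the authors and served as an alternative. FPKM in the series table and the library files differed by 0, and 0 columns per sample were left out.

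Counts, FPKM and TPM were summed over the contigs of a unigene, and the length is that of its longest contig. Ratios of single unigenes are of FPKM with nothing added; log2 ratios used FPKM with 0.1 added. Intervals of count ratios are exact conditional 95% intervals and cover counting error only; a count of 0 was taken to allow 3. No test between tissues was made. Enzymes came from 1130 rows of the study's annotation with 754 enzymes. Complete and shortened rows were both used, 481 of the enzymes had complete rows, and contigs beyond those shown were not analysed here. Named were, per direction, the 10 largest ratios and the 5 highest FPKM among called unigenes with an enzyme name, at least 100 counts and both intervals clear of 1, at most 2 without a name, and in each list the largest called ratio per direction and the highest FPKM; further members of a list are described after their values were seen, and TR64679|c0_g1, TR59117|c1_g2, TR60064|c0_g2 and CYP716A52v2 stand outside the rule. The members, lists and comparisons were chosen with earlier results of these data known. Python 3.11.15 (numpy 2.4.6, pandas 2.3.3, scipy 1.17.1, matplotlib 3.10.9) served for all steps except the TMM and median-of-ratios factors. Those were computed in R 4.3.3, the TMM factors with edgeR 4.0.16. The call rule and the intervals were run on simulated counts with known ratios. Alternatives were TPM, TMM and median-of-ratios scaling, another pseudocount, other count minimums, thinned counts, the most abundant contig, each rhizome alone, and complete enzyme rows only.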

Additional observations from a re-analysis of the deposited data

How the results depend on the processing

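The counts of unigenes higher and lower in secRoot moved most with the filter on low counts: with a minimum of 1 count, 17178 were higher and 12167 lower out of 86016, many of them on few counts, and with a minimum of 100 counts 802 were higher and 537 lower out of 8838. TPM, TMM and median-of-ratios scaling, 1 added to FPKM, the most abundant contig, thinned counts and either rhizome alone gave 871 to 1414 higher and 841 to 1083 lower. With rhizome_Y alone 81.5% of the higher and 81.6% of the lower unigenes kept their call, and with rhizome_O alone 85.1% and 77.8%. The median log2 ratio over all unigenes was -0.02 under the 3 other scalings. Of 114 list medians under alternatives, 7 left the interval that the ranks of the list's members gave. With complete enzyme rows only, phenylpropanoid entry had a median of 0.36, glutathione enzymes -1.32 and ascorbate and hydrogen peroxide enzymes -1.46, since fewer unigenes remained, and the lists of nitrogen assimilation (-0.32), pectin and wall modification (0.15) and polyamines (-0.16) changed sign; no unigene remained for starch synthesis, cell wall synthesis, the ethylene and methionine cycle, glycolysis, the respiratory chain and beta-oxidation, which have no value there. The cytokinin list, a single unigene, had 0.0419 with TPM and 0.0443 with 1 added to FPKM, and -0.0148 with TMM-scaled and -0.0151 with median-of-ratios-scaled counts. Of 296 ratios of named unigenes under alternatives, 0 changed direction where the unigene was called, and 6 moved by more than 1.5 times. No paired analysis was possible because each tissue had 1 library. Depth limits weak unigenes: 3 counts equal an FPKM of 0.610 in secRoot, 1.06 in rhizome_Y and 0.887 in rhizome_O at an effective length of 1000 bp.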

Other observations

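A total of 60 unigenes stood 2-fold on opposite sides of the rhizomes: 18 were 2-fold above rhizome_Y and 2-fold below rhizome_O, and 42 were 2-fold above rhizome_O and 2-fold below rhizome_Y.

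A total of 35 unigenes of those compared had no count in secRoot, and 34 of them had more counts in rhizome_Y than in rhizome_O. Their counts in rhizome_Y ran from 50 to 258 with a median of 76, and in rhizome_O from 0 to 72 with a median of 1. Of these, 22 were called lower and 13 had no count in rhizome_O and so were not below each rhizome. Among those 13, one was annotated as glutamine synthetase, which binds ammonium into glutamine: TR46476|c0_g1 had 0 counts in secRoot, 60 in rhizome_Y and 0 in rhizome_O. In the other direction, 2 unigenes had counts in secRoot and none in either rhizome.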
